A study of Mus musculus with 15 samples.

Results

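The genes described here are 9 members of the IL-1 family system in cultured mouse cerebellum, chosen by symbol: the ligands *Il33*, *Il1a*, *Il1b* and *Il18*, the antagonist *Il1rn*, the receptor chains *Il1r1*, *Il1rl1* and *Il1rap*, and the adaptor *Myd88*. They are 9 of 35142 genes in the summed table, and 8 of them were among the 15360 genes that passed a filter of 1 CPM (reads scaled to the library's total) or more in 2 or more cultures. *Il1b* did not pass. Bulk RNA-seq was made of dissociated cerebellar cells of C57BL/6 wt pups aged 0 to 4 days, 15 cultures in all at day 14 in vitro. Of these, 5 were untreated (called unstimulated below), 5 received IL-12p70 at 30 ng/ml and 5 at 100 ng/ml for 18 h, as recombinant mouse protein in the form of the active dimer of both subunits. All carry the same genotype. The labels do not say whether the replicates came from separate litters, so the p-values below measure the spread between these cultures, which may be technical.

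IL-1 family cytokines act through pairs of receptor chains. IL-1α and IL-1β bind IL-1R1, IL-33 binds ST2 (the product of *Il1rl1*), and both receptors recruit the shared chain IL-1RAcP (*Il1rap*), after which MyD88 and IRAK kinases carry the signal to NF-kB. IL-1 receptor antagonist (*Il1rn*) occupies IL-1R1 without signaling. In the central nervous system IL-33 is a nuclear alarmin made mainly by astrocytes and oligodendrocytes, whereas IL-1 and its antagonist come largely from microglia and other myeloid cells, and IL-1R1 is prominent on endothelium and some neurons.

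The cultures were labelled as neurons but held RNA of several cell types. The summed level of 12 cerebellar neuron markers lay between 203 and 273 TPM (a level corrected for transcript length) over the 15 cultures, against 5630 to 9994 TPM for 11 microglia markers, 3813 to 5278 TPM for 9 astrocyte markers and 5926 to 9843 TPM for 11 oligodendrocyte-lineage markers. Of 6 endothelial markers, *Cldn5* was at 0 in every culture and the sum lay between 18.1 and 32.1 TPM. The 6 markers of fibroblasts and meninges summed to 418 to 666 TPM. Markers of T and NK cells summed to 3.03 to 7.35 TPM, mast cell markers to 3.95 to 8.32 TPM and neutrophil markers to 0.974 to 4.07 TPM, with *S100a9* and *Ly6g* at 0 throughout. The files assign 25746096 to 38435850 reads to each culture. In whole cultures fewer cells of a type and less RNA per cell cannot be told apart, which holds for every difference below.

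In unstimulated cultures *Il1rap* had the highest level (37.2 ± 6.10 TPM, SD, n = 5), followed by *Myd88* (24.6 ± 1.13 TPM) and by *Il18* (18.8 ± 1.63 TPM) and *Il33* (18.0 ± 1.5 TPM). The values of *Il18* and *Il33* overlapped, while the other neighbours down to *Il1r1* (6.42 ± 0.780 TPM) did not. *Il1rl1* (1.38 ± 0.273 TPM), *Il1a* (1.23 ± 0.450 TPM), *Il1rn* (1.14 ± 0.460 TPM) and *Il1b* (0.676 ± 0.230 TPM) came last, each overlapping with the next. *Il33* thus stood above its receptor chain *Il1rl1* in each of these cultures, whereas *Il1a* and *Il1b* stood below theirs. The reads behind the members ranged from 2327 to 4033 per culture for *Il1rap* and from 678 to 1092 for *Il33*, but only from 40 to 86 for *Il1rl1*, 24 to 68 for *Il1a*, 11 to 41 for *Il1rn* and 6 to 32 for *Il1b*.

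**Figure D1:**
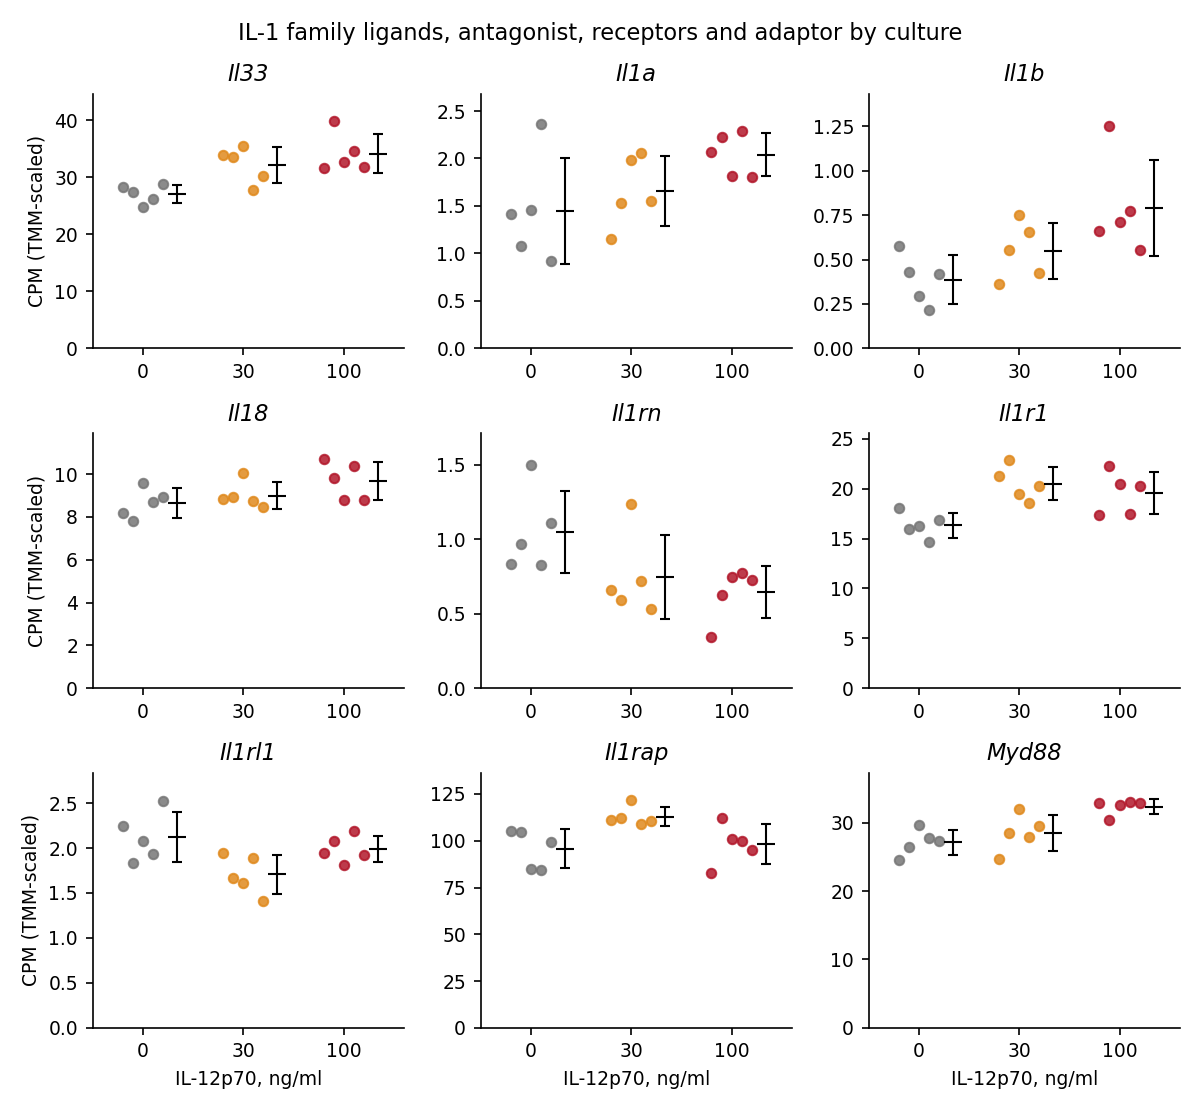
Level of each gene in each of the 15 cultures, in CPM scaled with edgeR's TMM factors (vertical axes, from 0), at 0 (unstimulated), 30 and 100 ng/ml IL-12p70. Points are cultures and black marks the mean ± SD of 5 cultures. All 5 *Il33* points at 100 ng/ml (31.7 to 39.9 CPM) lie above the unstimulated points (24.8 to 28.8 CPM), and all 5 *Il1rn* points at 100 ng/ml lie below those of unstimulated cultures.

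The first comparison asked which members differed between cultures with 100 ng/ml IL-12 and unstimulated cultures. *Il33*, *Il1r1* and *Myd88* rose, by 1.26-fold, 1.19-fold and 1.19-fold. With edgeR's quasi-likelihood test and Benjamini-Hochberg adjustment over all genes tested (FDR), these were the 3 of 8 tested members past an FDR of 0.05, where 9.77% of all tested genes were called, 5.83% as higher. None of the 8 was called lower. The CPM of the 2 groups did not overlap for 3 tested members (*Il33*, *Il1rn* and *Myd88*), against 7.17% of all tested genes. *Il1rn* passed the filter through unstimulated replicates 3 and 5 and replicate 3 of 30 ng/ml, and reached at most 0.774 CPM at 100 ng/ml. It was thus tested through cultures where it was higher, while *Il1b*, lowest in unstimulated cultures, was not tested. The median log2 fold change of the 8 was 0.21, beside -0.0038 over all genes.

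At 30 ng/ml *Il33* and *Il1r1* rose, by 1.19-fold and 1.25-fold, and these 2 of 8 were the members called, against 7.87% of all tested genes (4.16% higher). Groups did not overlap for *Il1r1* and *Il1rap*, where 8.89% of all tested genes showed such a gap. Between 100 and 30 ng/ml 0 of the 8 members were called by edgeR, by DESeq2 or by limma-voom, where edgeR called 0.579% of all genes. The lowest edgeR FDRs among the members were 0.224 (*Myd88*) and 0.277 (*Il1rap*). The mean of both concentrations differed from unstimulated for *Il33* (log2 fold change 0.29, FDR 0.00747) and *Il1r1* (0.29, FDR 0.00956), both higher, where 11.9% of all genes were called and 6.71% called higher. The comparisons with unstimulated cultures share those 5 cultures, and that between the concentrations shares its cultures with them, so they are not independent of each other.

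**Figure D2:**
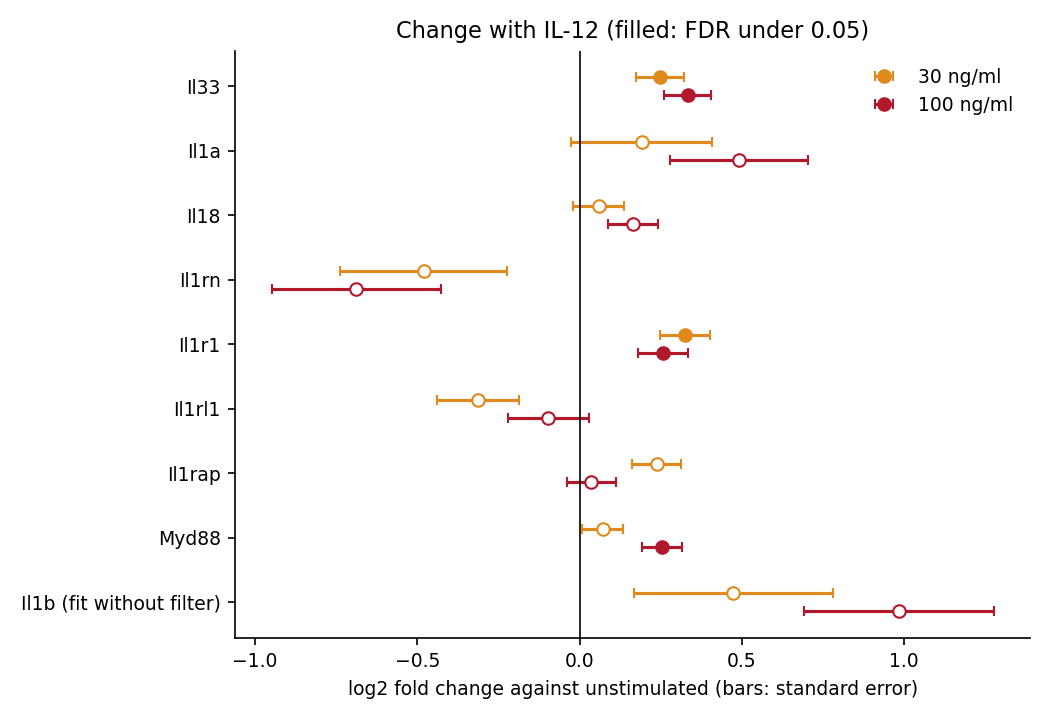
Fitted log2 fold change against unstimulated cultures (horizontal axis) for each gene at 30 ng/ml (orange) and 100 ng/ml (red), with bars for the standard error and filled points for an FDR under 0.05. *Il33* and *Il1r1* are filled at both concentrations and *Myd88* at 100 ng/ml. *Il1b* is from a fit without a filter on low counts and its points are open.

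Among the ligands, *Il33* (ENSMUSG00000024810, chromosome 19, 29902483 to 29938933, plus strand, GRCm39) encodes an alarmin released from damaged cells. Its level in unstimulated replicates 1 to 5 was 28.3, 27.4, 24.8, 26.3 and 28.8 CPM. With 30 ng/ml it was 33.9, 33.6, 35.6, 27.8 and 30.2 CPM, and with 100 ng/ml 31.7, 39.9, 32.8, 34.7 and 31.8 CPM. One culture at 30 ng/ml, replicate 4, fell within the unstimulated range, while the 100 ng/ml group lay wholly above it. The log2 fold change was 0.33 ± 0.07 (SE) at 100 ng/ml (FDR 0.00876, a call that held under every alternative run) and 0.25 ± 0.07 at 30 ng/ml (FDR 0.0472). The call at 30 ng/ml was lost with limma-voom (FDR 0.0554), with RLE factors (0.0518), with a replicate block (0.0630) and without any 1 of 12 cultures (0.0535 to 0.124), and held when replicate 4 of 30 ng/ml or replicate 1 or 2 of 100 ng/ml was left out.

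*Il33* was also set against astrocyte markers. Their summed level was 3813 to 4275 TPM in unstimulated cultures, 4519 to 5278 TPM at 30 ng/ml and 4230 to 4690 TPM at 100 ng/ml. At 30 ng/ml 3 of 9 markers were called higher, beside 4.16% of all tested genes. At 100 ng/ml 1 was called higher and 1 lower, beside 9.77% of all tested genes called in either direction. The log2 difference of the sum was 0.22 at 30 ng/ml (adjusted exact permutation p = 0.0857) and 0.13 at 100 ng/ml (adjusted 0.122), and neither passed. Relative to that sum, *Il33* was higher at 100 ng/ml by 0.25 on the log2 scale, with no overlap (exact two-sided permutation test, p = 0.00794, the smallest that 5 against 5 cultures allow; 0.0357 after adjustment over 27 such comparisons). At 30 ng/ml the difference was 0.13 (exact p = 0.175, adjusted 0.314). Oligodendrocyte-lineage markers summed to 6633 to 9843 TPM unstimulated, 6658 to 8180 TPM at 30 ng/ml and 5926 to 7196 TPM at 100 ng/ml. At these concentrations 1 and 3 of 11 were called lower, beside 7.87% and 9.77% of all tested genes called in either direction. The sum of the oligodendrocyte-lineage markers differed by -0.13 and -0.30 (log2, exact permutation p = 0.333 and 0.0397, adjusted 0.474 and 0.134). Fibroblast and meninges markers summed to 418 to 560 TPM unstimulated, 443 to 531 TPM at 30 ng/ml and 518 to 666 TPM at 100 ng/ml. In edgeR 2 of 6 were called higher at 100 ng/ml and 0 at 30 ng/ml, beside 5.83% and 4.16% of all tested genes. Their sum differed by 0.17 and -0.04 (log2, exact permutation p = 0.119 and 0.667, adjusted 0.247 and 0.759). Neither *Il33* nor *Il1r1* was tested relative to oligodendrocyte-lineage or to fibroblast and meninges markers.

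*Il33* has annotated transcripts that start at different places. Il33-202 starts at position 29902483 of chromosome 19 and Il33-201 starts 20659 bases downstream, at 29923142, and both hold the same reading frame of 266 codons. In the RefSeq table of promoter windows (GRCm38.p6, 250 bases before to 50 bases after a start), *Il33* likewise has a pair of windows, 20677 bases apart. They are printed because the 2 starts carry the isoform values below. Neither window held the NF-kB or STAT letters searched for, so no part is in capitals.
Il33 upstream start, chr19:29924863-29925162, plus strand: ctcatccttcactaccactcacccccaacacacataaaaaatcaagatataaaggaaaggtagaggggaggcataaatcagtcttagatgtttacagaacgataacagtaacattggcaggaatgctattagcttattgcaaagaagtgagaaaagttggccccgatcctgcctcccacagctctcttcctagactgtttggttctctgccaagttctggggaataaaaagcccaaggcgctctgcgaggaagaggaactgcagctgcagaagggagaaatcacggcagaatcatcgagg
Il33 downstream start, chr19:29945540-29945839, plus strand: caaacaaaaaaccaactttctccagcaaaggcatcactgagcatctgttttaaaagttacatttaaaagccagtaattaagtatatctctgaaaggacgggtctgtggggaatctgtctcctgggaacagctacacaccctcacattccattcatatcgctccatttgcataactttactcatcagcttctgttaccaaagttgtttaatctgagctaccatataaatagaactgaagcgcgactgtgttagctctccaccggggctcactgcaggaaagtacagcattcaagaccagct

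The estimates divided *Il33* between these starts very differently from culture to culture. Il33-201 was estimated at 3.18, 0.348, 14.5, 15.04 and 8.88 TPM in unstimulated replicates 1 to 5 and Il33-202 at 15.1, 16.3, 0.112, 0.738 and 9.26 TPM. At 30 ng/ml Il33-201 held 8.39, 0.248, 6.76, 6.66 and 9.35 TPM, and at 100 ng/ml 13.2, 24.5, 13.3, 19.0 and 18.5 TPM. Il33-202 held 10.1 to 20.4 TPM at 30 ng/ml and 0.0723 to 6.24 TPM at 100 ng/ml. The share of Il33-201 was 75.0% ± 17.3 (SD, n = 5) at 100 ng/ml and 28.4% ± 16.8 at 30 ng/ml, without overlap (55.0% to 95.8% against 0.989% to 46.1%), but 48.8% ± 40.7 in unstimulated cultures, which spanned 1.86% to 90.4%. The difference between the concentrations had the smallest exact permutation p (0.00794), which is 0.167 after adjustment over 21 shares, and neither concentration differed from unstimulated (exact p = 0.222 and 0.317). Within each group the gene total of *Il33* spread less than its split between transcripts. The total was 16.2 to 19.6 TPM unstimulated, 20.1 to 25.1 TPM at 30 ng/ml and 22.1 to 25.5 TPM at 100 ng/ml. Il33-201 and Il33-202 have 2544 and 2537 bases, 8 exons each and the same end. Estimates of transcripts that share exons carry an uncertainty that these tests do not see, so use of either start was not tested.

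**Figure D3:**
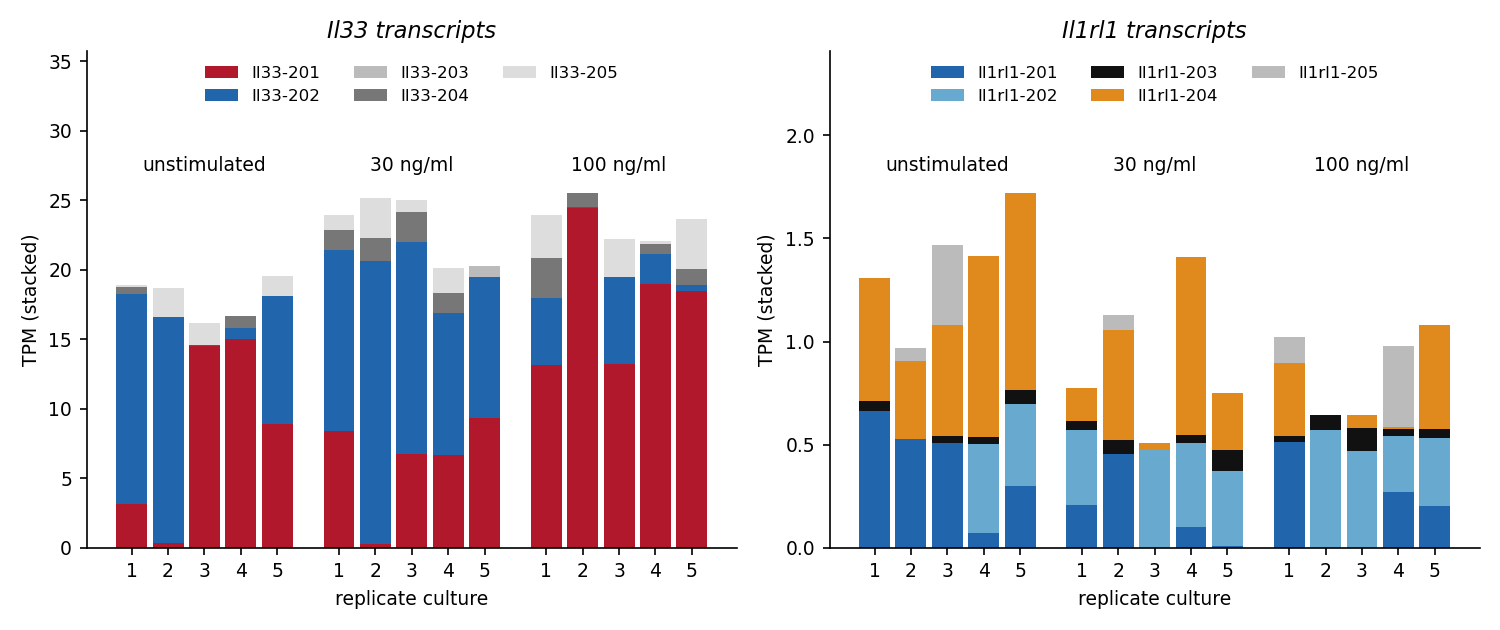
Estimated level of each annotated transcript of *Il33* (left) and *Il1rl1* (right), stacked in TPM, in replicate cultures 1 to 5 of each group. The *Il33* bars keep a similar height within a group while Il33-201 (red) and Il33-202 (blue) trade places, and the short Il1rl1-204 (orange) makes up between 0% and 62.1% of the *Il1rl1* bars.

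The receptor chain for IL-33 was scarce. *Il1rl1* (ENSMUSG00000026069, chromosome 1, 40468730 to 40504575) was at 2.25, 1.83, 2.08, 1.94 and 2.52 CPM in unstimulated cultures, at 1.95, 1.67, 1.61, 1.89 and 1.42 CPM with 30 ng/ml and at 1.94, 2.07, 1.81, 2.19 and 1.92 CPM with 100 ng/ml. The groups overlapped, with log2 differences of -0.31 ± 0.13 (SE, FDR 0.144) with 30 ng/ml and -0.10 ± 0.12 (FDR 0.672) with 100 ng/ml. Its reads went mainly to Il1rl1-201 and Il1rl1-202, which share the reading frame of 567 codons of the membrane receptor. The shorter Il1rl1-203 and Il1rl1-205 share a frame of 337 codons that corresponds to the soluble ST2, which binds IL-33 without signaling. In any culture Il1rl1-203 was at no more than 0.112 TPM and Il1rl1-205 at no more than 0.393 TPM. Il1rl1-204, a model of 375 bases, received at most 3.72 estimated reads per culture and yet held up to 62.1% of the gene's TPM, since TPM divides by length.

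The log2 ratio of *Il33* to *Il1rl1* in TPM was 3.86, 4.27, 3.46, 3.56 and 3.51 in unstimulated cultures and 4.55, 5.31, 5.11, 4.49 and 4.46 with 100 ng/ml. It was higher by 1.05 at 100 ng/ml, without overlap (exact permutation p = 0.00794, adjusted over 9 ratio comparisons 0.0714), and by 0.998 at 30 ng/ml (exact p = 0.0238, adjusted 0.0952). From estimated counts, which do not weight the short model, it was higher by 0.42 at 100 ng/ml (adjusted exact p = 0.0357) and by 0.56 at 30 ng/ml (adjusted 0.0476).

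*Il1a* (ENSMUSG00000027399, chromosome 2, minus strand) and *Il1b* (ENSMUSG00000027398, chromosome 2, minus strand) encode the IL-1 agonists. *Il1a* was at 1.41, 1.08, 1.46, 2.37 and 0.917 CPM in unstimulated cultures, at 1.16 to 2.06 CPM with 30 ng/ml and at 2.07, 2.23, 1.81, 2.29 and 1.81 CPM with 100 ng/ml. Unstimulated replicate 4 was above every stimulated culture and the other 4 were below every culture at 100 ng/ml. The log2 difference at 100 ng/ml was 0.49 ± 0.21 (SE) and was not called (FDR 0.154). Of 24 alternatives 23 left it uncalled (FDR up to 0.316). The 1 that called it left out unstimulated replicate 4, the culture with the highest level (log2 0.73, FDR 0.0238). *Il1b* was at 0.575, 0.430, 0.292, 0.215 and 0.420 CPM unstimulated and at 0.658, 1.25, 0.713, 0.774 and 0.554 CPM with 100 ng/ml, with 1 of the unstimulated cultures above the lowest stimulated one. In a fit without the filter its log2 difference was 0.98 ± 0.29 (SE, FDR 0.0592) for the higher concentration and 0.47 ± 0.31 (FDR 0.531) for the lower. Genes on the opposite strand overlap both loci (*Gm14023*, and *Il1bos* at *Il1b*), and how the estimates treated strand is not given in the sources used here.

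*Il18* (ENSMUSG00000039217, chromosome 9), a cytokine stored as a precursor in microglia, lay between 7.82 and 9.61 CPM in unstimulated cultures, between 8.46 and 10.1 CPM with 30 ng/ml and between 8.77 and 10.7 CPM with 100 ng/ml. The groups overlapped, with log2 differences of 0.16 ± 0.08 (SE, FDR 0.193) and 0.06 ± 0.08 (FDR 0.715). The receptor for IL-18 was barely detected: *Il18r1* stayed at or under 0.289 TPM and *Il18rap* at or under 0.761 TPM, and neither passed the filter. Its binding protein *Il18bp* was at 5.84 ± 0.746 TPM unstimulated and 6.18 ± 0.684 TPM at 100 ng/ml (FDR 0.208).

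The antagonist *Il1rn* (ENSMUSG00000026981, chromosome 2, plus strand) was at 0.836, 0.968, 1.5, 0.825 and 1.11 CPM in unstimulated cultures, at 0.660, 0.591, 1.24, 0.721 and 0.531 CPM with 30 ng/ml and at 0.345, 0.626, 0.745, 0.774 and 0.729 CPM with 100 ng/ml. The 5 cultures at 100 ng/ml lay below the 5 unstimulated ones, and at 30 ng/ml 4 of 5 did. Its log2 difference was -0.69 ± 0.26 (SE) at 100 ng/ml and missed the threshold (FDR 0.103), and it was -0.48 ± 0.26 at 30 ng/ml (FDR 0.286). The log2 ratio of *Il1rn* to the sum of *Il1a* and *Il1b* in TPM was -0.80 ± 0.85 (SD, n = 5) in unstimulated cultures, -1.45 ± 0.71 with 30 ng/ml and -1.85 ± 0.27 with 100 ng/ml. Antagonist was thus low relative to agonists in each of the cultures at 100 ng/ml, from -2.19 to -1.48, whereas unstimulated cultures reached from -1.86 to 0.21. The difference of -1.05 at 100 ng/ml had an exact permutation p of 0.0317, or 0.0952 after adjustment, and from estimated counts it was -1.36 (adjusted exact p = 0.0357). The ratio of *Il1b* to *Il1a* differed by 0.07 at 100 ng/ml (exact p = 0.833).

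*Il1a*, *Il1b*, *Il1rn*, *Il18* and *Myd88* were also set against microglia markers. The sum of these markers was 7091 to 9994 TPM unstimulated, 5630 to 7080 TPM at 30 ng/ml, without overlap, and 6744 to 8972 TPM at 100 ng/ml. In edgeR 7 of 11 markers fell at 30 ng/ml and 0 of 11 at 100 ng/ml. Of all tested genes, 7.87% and 9.77% were called in either direction. The log2 difference of the sum was -0.40 at 30 ng/ml (exact permutation p = 0.00794, adjusted over 27 marker sums 0.0857) and -0.14 at 100 ng/ml (exact p = 0.238, adjusted 0.402), so neither passed after adjustment. No marker was at 0 throughout a group. Relative to this sum, *Il18* was higher by 0.46 at 30 ng/ml and by 0.27 at 100 ng/ml (log2, both without overlap, exact permutation test, adjusted p = 0.0357), and *Il1a* by 0.67 and 0.68 (adjusted exact p = 0.0476 and 0.0357). Both ratios include the lower sum, and *Il18* itself differed by 0.06 and 0.16. With a geometric mean of the markers the calls were lost for *Il1a* at 30 and 100 ng/ml (adjusted exact p = 0.0643 and 0.0536) and for *Il18* at 100 ng/ml (0.0536). *Il1b* relative to the sum differed by 0.58 and 0.75 (adjusted exact p = 0.143 and 0.136) and *Il1rn* by -0.04 and -0.36 (adjusted exact p = 0.921 and 0.353), none of which passed. The part of microglia in the level of these genes was not tested further.

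**Figure D4:**
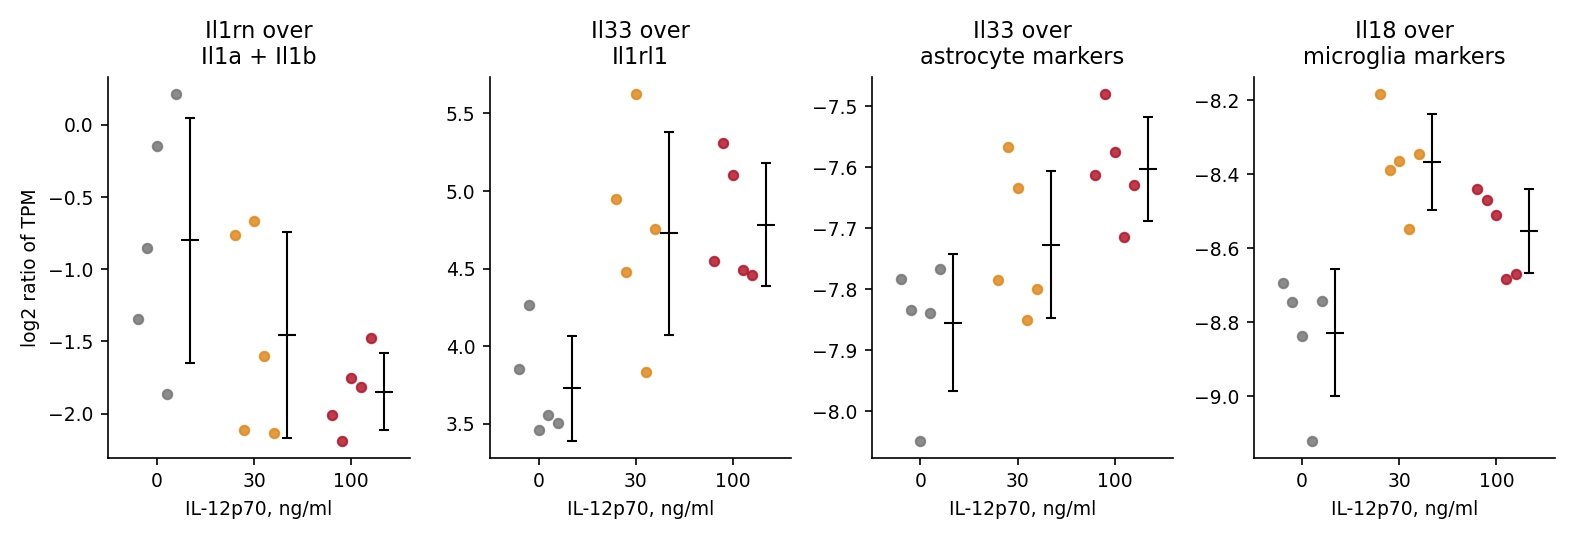
Log2 ratios of TPM in each culture at 0, 30 and 100 ng/ml IL-12p70: *Il1rn* to the sum of *Il1a* and *Il1b*, *Il33* to *Il1rl1*, *Il33* to the summed astrocyte markers and *Il18* to the summed microglia markers. Points are cultures and black marks the mean ± SD of 5. At 100 ng/ml the ratios of *Il33* and *Il18* lie wholly above the unstimulated points, and that of *Il1rn* lies between -2.19 and -1.48.

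*Il1r1* (ENSMUSG00000026072, chromosome 1, 40264174 to 40356417, plus strand), the signaling receptor for IL-1, was at 18.1, 16.0, 16.3, 14.6 and 16.8 CPM in unstimulated cultures. It was at 21.3, 22.8, 19.5, 18.6 and 20.2 CPM with 30 ng/ml and at 17.4, 22.3, 20.4, 17.5 and 20.3 CPM with 100 ng/ml. Every culture at 30 ng/ml exceeded every unstimulated one, while replicates 1 and 4 of 100 ng/ml fell below unstimulated replicate 1. The log2 fold change was 0.33 ± 0.08 (SE, FDR 0.0150) at 30 ng/ml and 0.26 ± 0.08 (FDR 0.0431) at 100 ng/ml. The call at 100 ng/ml was lost with limma-voom (FDR 0.0537), without the filter (0.0515), in a fit of only the groups compared (0.0705) and without any 1 of 9 cultures (0.0519 to 0.0974): unstimulated replicates 2 to 5, replicates 3 and 5 of 30 ng/ml and replicates 2, 3 and 5 of 100 ng/ml.

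Endothelial markers, by contrast, summed to 22.6 to 32.1 TPM unstimulated, 18.1 to 24.7 TPM at 30 ng/ml and 18.3 to 23.4 TPM at 100 ng/ml. The log2 difference of the sum was -0.41 at both concentrations (exact permutation p = 0.0159, adjusted 0.0857), and neither passed. Of the 6 markers, 3 averaged under 1 TPM in each group. Relative to the sum *Il1r1* was higher by 0.75 and 0.60 (log2, adjusted exact permutation p = 0.0476 and 0.0357), which includes the lower sum. Relative to astrocyte markers it differed by 0.12 and 0.05 (adjusted exact p = 0.508 and 0.703), which is within the spread between cultures. The main transcript, Il1r1-202, held 81.5% ± 12.6 (SD, n = 5) of the gene's TPM unstimulated, 81.3% ± 5.80 with 30 ng/ml and 83.2% ± 4.37 with 100 ng/ml. *Il1r2*, a decoy receptor for IL-1, was at 2.29 ± 0.709 TPM unstimulated and 3.03 ± 0.647 TPM with 100 ng/ml (log2 difference 0.43 ± 0.18, SE, FDR 0.145).

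*Il1rap* (ENSMUSG00000022514, chromosome 16), the chain shared by both receptors, was at 105, 105, 84.99, 84.2 and 99.3 CPM unstimulated, at 111, 112, 122, 109 and 110 CPM with 30 ng/ml and at 82.8, 112, 101, 100.0 and 95.0 CPM with 100 ng/ml. All 5 cultures at 30 ng/ml lay above the unstimulated ones, while the cultures at 100 ng/ml spread over and beyond the unstimulated range. The log2 difference was 0.24 ± 0.08 (SE, FDR 0.0628) at 30 ng/ml and 0.04 ± 0.08 (FDR 0.813) at 100 ng/ml. It was called at 30 ng/ml by DESeq2 (FDR 0.0390), by the likelihood-ratio test (0.0311), with library size alone (0.0494), in a fit of only the groups compared (0.0378), and without unstimulated replicate 1 or 2 or replicate 1 or 2 of 100 ng/ml (0.0346 to 0.0474). Il1rap-201, with the reading frame of 570 codons of the membrane chain, held 83.0% ± 7.42 (SD, n = 5) of the TPM unstimulated, 83.4% ± 5.88 and 84.1% ± 8.48 with 30 and 100 ng/ml. The next form by mean level, Il1rap-205, is annotated as subject to nonsense-mediated decay and varied between 0 and 10.2 TPM over the cultures. The short Il1rap-206, with 360 codons as in a soluble form, was at 0.657 to 1.77 TPM, and Il1rap-202, with a longer frame of 685 codons, at 0.177 to 0.590 TPM.

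*Myd88* (ENSMUSG00000032508, chromosome 9, 119165000 to 119170486, minus strand), the adaptor that links these receptors to IRAK kinases, was at 24.5, 26.5, 29.6, 27.7 and 27.4 CPM unstimulated. With 30 ng/ml it was at 24.7, 28.4, 31.9, 27.9 and 29.4 CPM and with 100 ng/ml at 32.8, 30.4, 32.6, 33.0 and 32.9 CPM. The 100 ng/ml cultures lay within a narrow range above every unstimulated culture, whereas those at 30 ng/ml spanned both. The log2 fold change was 0.26 ± 0.06 (SE, FDR 0.0152) at 100 ng/ml, where the call held under every alternative run, and 0.07 ± 0.06 (FDR 0.550) at 30 ng/ml, with a difference between the concentrations of 0.18 ± 0.06 (FDR 0.224). Relative to microglia markers, whose sum itself differed by -0.40 and -0.14 (log2), *Myd88* was higher at 30 and 100 ng/ml. These differences were 0.55 and 0.39 (log2, adjusted exact permutation p = 0.0357 and 0.0476). With a geometric mean of the markers the call at 100 ng/ml was lost (adjusted exact p = 0.0536). *Acaa1a* overlaps this gene on the opposite strand. *Gm38070* overlaps *Il1r1* on the same strand. On the opposite strand *Gm20319* overlaps *Il1rap*, and *Tex12* and *Bco2* overlap *Il18*.

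Single transcripts of the members were tested in the same way. Of 37 transcripts 15 passed the filter and 0 were called by edgeR at 100 ng/ml (0.559% of all tested transcripts were), at 30 ng/ml (0.359%) or between concentrations (0.0217%), with 2, 2 and 3 at an unadjusted p under 0.05. Those with such a p at 100 ng/ml were Il1r1-202 (log2 0.25 ± 0.09, SE) and Myd88-201 (0.24 ± 0.07), the main forms of *Il1r1* and *Myd88*. For *Il33*, which rose too, Il33-201 (log2 1.08 ± 0.76, SE) and Il33-202 (-1.53 ± 1.02) had an unadjusted edgeR p of 0.180 and 0.153. The biological coefficient of variation was 56.6% between transcript estimates and 8.0% between gene sums.

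Motifs were searched in the 14 promoter windows of the 9 members, as GGANNTTCC for NF-kB and TTCNNNGAA for STAT factors, on both strands. An NF-kB match was in 2 windows, 1 of *Myd88* and 1 of the 2 of *Il1rl1*, and a STAT match in the *Myd88* window, and the matches did not overlap. Of 32851 windows of the same length in the table, 4.26% held the first and 8.30% the second. The letters lay 4 bases after the start (NF-kB) and 46 bases before it (STAT, position -46) for *Myd88*, and 7 bases after the start for *Il1rl1*. Both windows are printed 5′ to 3′ (RefSeq, GRCm38.p6) with the matches in capitals, since *Myd88* rose and *Il1rl1* did not pass the test.
Myd88, chr9:119339969-119340268, minus strand: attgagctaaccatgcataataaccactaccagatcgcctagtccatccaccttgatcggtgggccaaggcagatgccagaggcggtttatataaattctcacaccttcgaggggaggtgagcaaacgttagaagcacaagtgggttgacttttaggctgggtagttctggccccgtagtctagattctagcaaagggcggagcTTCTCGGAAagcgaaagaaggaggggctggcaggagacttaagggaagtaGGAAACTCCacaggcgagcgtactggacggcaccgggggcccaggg
Il1rl1, chr1:40439379-40439678, plus strand: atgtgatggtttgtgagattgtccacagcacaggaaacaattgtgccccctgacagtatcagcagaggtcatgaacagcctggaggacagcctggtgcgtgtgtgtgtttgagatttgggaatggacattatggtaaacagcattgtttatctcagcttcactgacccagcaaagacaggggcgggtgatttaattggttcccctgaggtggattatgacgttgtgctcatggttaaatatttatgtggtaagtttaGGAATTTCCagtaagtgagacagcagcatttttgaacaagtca

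The genes around the members were described from lists of the pathway. Of the receptor-proximal signaling genes, 1 of 16 tested rose and 2 fell at 100 ng/ml, where 9.77% of all tested genes were called, and 1 rose and 1 fell at 30 ng/ml, where 7.87% were. *Irak3*, an inactive IRAK family member that restrains MyD88 signaling, rose from 4.03 ± 0.567 TPM (SD, n = 5) to 7.04 ± 0.792 TPM at 100 ng/ml (log2 0.82 ± 0.11, SE, FDR 0.000173), was at 4.35 ± 0.563 TPM with 30 ng/ml, and differed between the concentrations (log2 0.74, FDR 0.00284). *Traf6*, the ubiquitin ligase downstream of IRAK kinases, fell at 100 ng/ml (log2 -0.29, FDR 0.0136), and so did *Tab2* (log2 -0.16, FDR 0.0365). *Irak1* rose (log2 0.16, FDR 0.0155) and *Irak2* fell (log2 -0.27, FDR 0.0135) at 30 ng/ml.

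Of the genes for inflammasomes and for processing of IL-1 family precursors, 1 of 17 rose and 1 fell at 100 ng/ml, beside 9.77% called of all tested genes, and 1 rose and 2 fell at 30 ng/ml, beside 7.87%. *Casp1*, the protease that matures IL-1β and IL-18, was at 13.3 ± 1.59 TPM unstimulated, 13.5 ± 0.817 TPM with 30 ng/ml and 15.8 ± 1.31 TPM with 100 ng/ml (FDR 0.0863). *Capn2*, a calpain subunit, rose at both concentrations (log2 0.18 and 0.16, FDR 0.00664 and 0.0129). *Nlrp1b*, an inflammasome sensor, fell at both (log2 -0.79 and -0.56, FDR 0.000854 and 0.00630), and *Ctss*, a protease abundant in microglia, fell at 30 ng/ml (log2 -0.49, FDR 0.00676), where 7 of 11 microglia markers fell too. Of the remaining ligands and decoys 1 of 6 was tested and of the other receptors 3 of 7, with an FDR of 0.145 or more at 100 ng/ml and 0.426 or more at 30 ng/ml.

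A further list held genes that IL-1 is known to induce, and that NF-kB and STAT3 signals from other cytokines induce too. Of its 14 genes 11 were tested, and *Cxcl2*, *Il6* and *Csf3* did not pass the filter. At 100 ng/ml 8 of 11 tested rose and 0 fell, with a median log2 fold change of 0.51, where 5.83% of all tested genes were called higher. Not called at 100 ng/ml were *Tnfaip3* (FDR 0.752), *Ptgs2* (FDR 0.739) and *Csf1* (FDR 0.0938). At 30 ng/ml 5 rose and 1 fell, with a median of 0.26, where 4.16% of all tested genes were called higher. *Saa3*, an acute-phase protein, went from 16.3 ± 2.88 TPM (SD, n = 5) to 31.7 ± 8.19 TPM and 94.6 ± 17.1 TPM with 30 and 100 ng/ml, and was called between the concentrations as well (log2 1.59, FDR 3.51e-05). *Lcn2*, an iron-binding acute-phase protein of reactive astrocytes, was at 402 ± 82.0, 585 ± 126 and 827 ± 137 TPM and rose at 100 ng/ml (log2 1.05, FDR 0.000451). The chemokine genes *Cxcl1* (log2 1.42) and *Ccl2* (0.94), and the NF-kB regulators *Bcl3* (0.69), *Nfkbiz* (0.51) and *Nfkbia* (0.41), rose at 100 ng/ml together with the RNase gene *Zc3h12a* (0.39). *Tnfaip3*, an inhibitor of NF-kB signaling, fell at 30 ng/ml (log2 -0.28, FDR 0.0319). These lists were chosen with earlier results of the same cultures known, so their direction is a description.

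**Figure D5:**
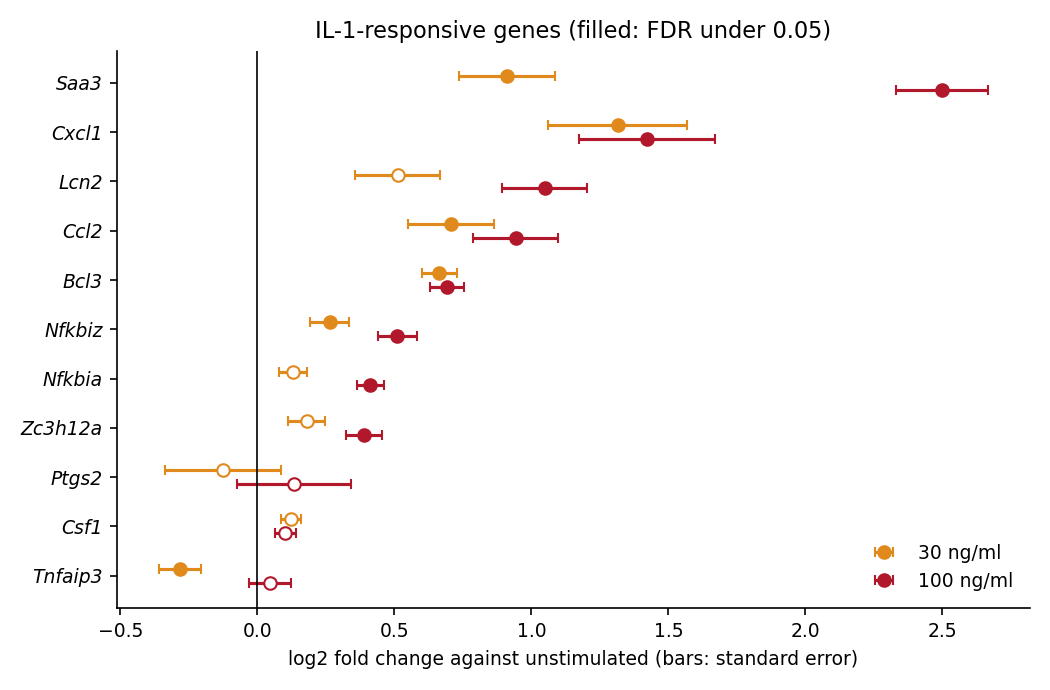
Fitted log2 fold change against unstimulated cultures (horizontal axis) of the 11 tested IL-1-responsive genes at 30 ng/ml (orange) and 100 ng/ml (red), with bars for the standard error and filled points for an FDR under 0.05. *Saa3* lies farthest right at 100 ng/ml and *Tnfaip3* is the gene filled to the left of 0.

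The genes whose log2 CPM followed each member most closely over the 15 cultures were listed among 13940 protein-coding genes. These correlations are descriptions over cultures that share group and library. For *Il33* they were *Cxcl5* (Pearson r 0.916, Spearman rho 0.936, and r 0.932 without the 2 cultures farthest from the median), *Lgalsl* (r 0.903), *Nfkbiz* (0.869), *Stk32a* (0.864) and *Frrs1l* (0.864). After removal of the group means r with *Cxcl5* was 0.816. For *Il1r1* they were *Plce1*, *Ildr2* and *Igsf10* (r 0.924, 0.919 and 0.917), and for *Il1rap* they were *Tafa2*, *Fam171b* and *Dclk1* (0.937, 0.930 and 0.923). *Myd88* was followed by *Gins2*, *Tk1* and *Mvp* (0.927, 0.922 and 0.918), *Il1a* by *Ethe1*, *Lap3* and *Tfec* (0.900, 0.878 and 0.877), *Il18* by *Camkk2*, *Csf2ra* and *Ifitm10* (0.845, 0.837 and 0.835) and *Il1rl1* by *Myo1e*, *Plekhm3* and *Sgpp2* (0.821, 0.814 and 0.800).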

How the data were processed

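Poly(A) RNA of 15 cultures was sequenced by the authors from stranded libraries as single-end reads of 100 bases. Per the labels and methods, reads were aligned with STAR 2.7.8a to GRCm39 and counted with featureCounts on GENCODE M26. The deposited files are of another kind: estimated counts and TPM per transcript, from a program not given in the sources used here. Estimated counts and TPM as deposited were summed to genes with GENCODE M39 (120537 of 121798 transcripts matched, 99.0%; the others held 0.677% to 0.712% of reads). Sums of counts were rounded.

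Genes reaching 1 CPM in 2 or more cultures were TMM-scaled and tested in 1 fit of the 3 groups without covariates with edgeR 4.0.16 (quasi-likelihood, R 4.3.3), with Benjamini-Hochberg adjustment (FDR, threshold 0.05). The fit was tested on simulated counts. Shares, ratios and marker sums were compared by exact two-sided permutation tests (SciPy 1.17.1), each family adjusted alone. Alternatives were DESeq2 1.42.0, limma-voom (limma 3.58.1), the likelihood-ratio test, other factors and filters, a replicate block and leaving out each culture. The members and lists were chosen with earlier results of these data known. Genes named are the members, pathway genes past the FDR threshold at 100 or 30 ng/ml, direct partners and the other IL-1-responsive genes. Named too are the 5 (*Il33*) or 3 (other tested members with a mean of at least 1 CPM) protein-coding genes with the highest Pearson correlation of log2 CPM (prior count 2). The notes name FastQC 0.10.0 too.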

Additional observations from a re-analysis of the deposited data

Results flagged for a closer look

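Among 27 sets of 5 cultures (9 genes in 3 groups), 3 held a culture that stood apart from the other 4 by Dixon's test, which chance gives in about 1 of 20. *Il1rap* in replicate 3 of 30 ng/ml was at 122 CPM, above the next at 112 CPM. *Il1rn* in the same culture was at 1.24 CPM, above the next at 0.721 CPM, and without that culture the mean of both concentrations was called lower than unstimulated (log2 -0.71, FDR 0.0317, edgeR). *Myd88* in replicate 2 of 100 ng/ml was at 30.4 CPM, below the next at 32.6 CPM and above every unstimulated culture, and without it the mean of both concentrations was called higher (the FDR without 1 of 3 such cultures was 0.0178 to 0.0442).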

How the results depend on the processing

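No member changed direction under any alternative in any of its comparisons with a call. Of the members, 3 were called at 100 ng/ml, and 2 to 3 with 1 culture left out or another setting. At 30 ng/ml 2 were called, but 1 with limma-voom, 1 with RLE factors and 1 with the replicate block, and between 1 and 3 with 1 culture left out. With the replicate block 3 members were called at 100 ng/ml and 3 for the mean of both concentrations. Correlations of same-numbered cultures, after removal of group means, ran from -0.18 to 0.26, with 4 of 15 over 0.1. They were not set against differently numbered cultures, so whether replicate numbers mark pairs was not tested. For pathway genes between concentrations DESeq2 called 5 in place of 3. *Myd88* for the mean of both concentrations (FDR 0.0579) was called with DESeq2 (0.0436), the likelihood-ratio test (0.0396), library size alone (0.0324) and the replicate block (0.0401). Comparisons relative to marker sums each lost the call when any of 8 to 10 cultures was left out (adjusted p 0.0536 to 0.0952), as fewer cultures raise the smallest exact p, and with a geometric mean of the markers in 4 cases. *Il1rl1*, *Il1a*, *Il1b* and *Il1rn* had fewer than 100 reads in every culture, which limits their precision. Transcript estimates also varied for *Il33*, with at least 678 reads per culture, and the cause was not tested.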
